A study of Mus musculus with 5 samples.

Results

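Collagen genes were described in 4 mouse medulloblastomas, tumours of the cerebellum, and in 1 sample of P5 cerebellum, P5 being read as postnatal day 5. They were taken as every gene on the array whose single symbol in the platform annotation has the form of a collagen chain name (Col, a number, a and a number), whatever its signal. The rule found 82 probe sets for 42 genes, of 18193 genes with a named probe set, and the brightest probe set by mean over the 5 arrays stood for each gene. A mean signal of at least 100 was reached by 36 of the 42, and these were tested together with all other such genes.

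The tumours were labelled mouse medulloblastoma and the normal sample mouse brain, with cerebellum and P5 in its title. No label gives a genotype, strain, treatment or sex of any animal, or an age of the tumours. The series title concerns medulloblastomas of Cxcr6 mutant mice and a Smoothened inhibitor, but which array carries the mutation or the drug is not stated, so neither was compared. With a single cerebellum array, a difference from the tumours cannot be told apart from a difference between 1 cerebellum and another, nor from a difference in age, since the P5 cerebellum is still growing. The titles of medulloblastomas 1 and 2 start with ken, and those of medulloblastomas 3 and 4 and of the cerebellum with hmk. No label says what the prefix stands for. Values are scanner signals on a linear scale, differences are on the scale of log2(signal + 32), and the median signal of an array was between 191 and 213 in the tumours and 232 in P5 cerebellum.

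Collagens are secreted or membrane proteins of 3 chains wound into a triple helix, with glycine recurring regularly along each chain. Fibrillar chains build the fibres of connective tissue, type IV chains the sheet of basement membranes, type VI chains fine beaded filaments around cells, and fibril-associated chains decorate fibres made by others. In the brain, collagen is found mainly in the meninges and around blood vessels, and little is deposited among the neurons themselves. Meningeal collagen, type III above all, is also a ligand for receptors on neural cells, Adgrg1 (GPR56) among them.

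Chains that share a molecule are in several cases encoded side by side, and these pairs allow partner genes to be read on the same arrays. In the RefSeq genes of GRCm38.p6, Col4a1 and Col4a2 are neighbours on chromosome 8 that are transcribed away from each other, as are Col4a6 and Col4a5 on chromosome X. Col3a1 and Col5a2, 2 fibrillar genes, are neighbours on chromosome 1. So are the type IV genes Col4a4 and Col4a3, whose windows are not shown because Col4a3 was below the signal filter. The promoter windows in the RefSeq table hold 250 bases before to 50 after the start of the gene. They are shown for Col4a1, Col4a2, Col4a5 and Col4a6 as pairs transcribed away from each other. The window of Col3a1 is shown because that gene was the collagen gene called by the fit. Each is written 5′ to 3′ on the strand of its gene. Capitals mark the motifs searched on both strands, the CCAAT box (CCAAT), the GC box (GGGCGG) and the TATA box (TATAAA), and no match overlapped another in these windows.
Col4a1 (GRCm38.p6 chr8:11312777-11313076, minus strand): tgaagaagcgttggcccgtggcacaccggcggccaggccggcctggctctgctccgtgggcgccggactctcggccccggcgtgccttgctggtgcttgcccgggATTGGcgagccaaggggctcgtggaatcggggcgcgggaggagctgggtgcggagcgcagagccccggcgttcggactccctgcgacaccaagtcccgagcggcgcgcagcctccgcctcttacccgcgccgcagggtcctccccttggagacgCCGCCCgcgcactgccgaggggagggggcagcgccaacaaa
Col4a2 (GRCm38.p6 chr8:11312555-11312854, plus strand): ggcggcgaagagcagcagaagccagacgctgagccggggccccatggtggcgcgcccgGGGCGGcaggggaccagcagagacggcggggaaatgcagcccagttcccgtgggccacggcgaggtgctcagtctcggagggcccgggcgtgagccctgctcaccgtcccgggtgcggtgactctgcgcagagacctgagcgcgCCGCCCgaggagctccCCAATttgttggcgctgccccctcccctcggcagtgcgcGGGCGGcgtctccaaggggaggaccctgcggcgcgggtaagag
Col4a5 (GRCm38.p6 chrX:141475169-141475468, plus strand): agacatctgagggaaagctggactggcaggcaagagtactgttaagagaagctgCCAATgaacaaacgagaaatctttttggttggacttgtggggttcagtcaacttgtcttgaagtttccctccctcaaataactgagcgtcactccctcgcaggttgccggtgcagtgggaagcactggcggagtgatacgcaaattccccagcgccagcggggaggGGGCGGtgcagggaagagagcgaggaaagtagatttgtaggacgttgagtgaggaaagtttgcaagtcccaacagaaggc
Col4a6 (GRCm38.p6 chrX:141474027-141474326, minus strand): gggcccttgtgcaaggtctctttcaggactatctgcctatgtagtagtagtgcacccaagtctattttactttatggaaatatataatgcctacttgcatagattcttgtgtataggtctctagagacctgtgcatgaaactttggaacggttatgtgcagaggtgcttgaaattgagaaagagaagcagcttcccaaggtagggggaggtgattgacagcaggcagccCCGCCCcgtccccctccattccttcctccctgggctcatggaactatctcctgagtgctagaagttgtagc
Col3a1 (GRCm38.p6 chr1:45311288-45311587, plus strand): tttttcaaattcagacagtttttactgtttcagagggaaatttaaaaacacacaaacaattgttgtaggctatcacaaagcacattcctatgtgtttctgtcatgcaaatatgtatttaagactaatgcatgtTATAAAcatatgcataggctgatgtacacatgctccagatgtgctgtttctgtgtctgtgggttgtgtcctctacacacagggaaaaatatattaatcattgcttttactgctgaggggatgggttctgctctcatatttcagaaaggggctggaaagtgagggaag

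The windows of Col4a1 and Col4a2 share 78 bases, and their annotated starts lie 21 bases apart. These genes overlap there, so each start and the bases shown before it lie inside the other gene. The starts of Col4a6 and Col4a5 lie 1343 bases apart, with a gap between the genes. Guanine and cytosine make up 74% of the Col4a1 window and 73.7% of the Col4a2 window, 52.7% for Col4a5, 48.3% for Col4a6 and 37.7% for Col3a1. GGGCGG occurred in all 4 type IV windows shown and not in the Col3a1 window, which held 1 TATAAA. The only GGGCGG match of the Col4a1 window is the same genomic stretch as 1 of the 3 in the Col4a2 window, and it lies after both starts. Of the 42 collagen genes, 33 had a window in the table, 36 windows in all. GGGCGG was found in 61.1% of these windows and in 35.7% of all 32851 windows in the table. The shares were 36.1% and 37.4% for CCAAT, and 13.9% and 13.6% for TATAAA. These are matches of letters and say nothing of a factor bound there.

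Most collagen genes read lower in the tumours. In 25 of the 42 each of the 4 tumours lay below the cerebellum, and in 3 each lay above it; over all 18193 named genes these shares were 31.2% and 21.8%. Signals were at least 2-fold lower in each tumour for 7 collagen genes, against 3.07% of all named genes. These were the fibrillar genes Col1a1, Col1a2, Col3a1 and Col5a1, the type VI gene Col6a3, the transmembrane collagen gene Col23a1 and Col26a1. No collagen gene was at least 2-fold higher in each tumour, as 1.69% of all named genes were. The median log2 difference was -0.79 over the 42 collagen genes, against -0.09 over all named genes, and by tumour the collagen median was -0.51, -0.88, -0.70 and -0.61 in medulloblastomas 1 to 4.

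At a Benjamini-Hochberg adjusted p under 0.05 in limma, 1 of the 36 collagen genes tested fell (0.177% of all 14109 genes tested were called lower) and 0 rose (0.312% of all genes tested were called higher). At an unadjusted p under 0.05 the limma counts were 13 lower and 1 higher of the 36, against 1050 lower and 1089 higher of all 14109 genes tested. The spread in this fit comes from the tumours alone, and the submitters themselves call the replicates insufficient. With 4 arrays set against 1, the smallest p of an exact permutation test is 0.2. Among the 36 tested, Col4a4, Col6a4, Col8a2 and Col26a1 averaged under 100 in the tumours, and Col12a1 and Col20a1 were under 100 in the cerebellum, so these 6 passed the signal filter through 1 side. Of these 6, Col26a1 is among the 13 lower above and Col12a1 is the 1 higher, so their tests support no count of genes. On bulk tissue, fewer cells of a collagen-making type and less collagen RNA per cell cannot be told apart.

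**Figure D1:**
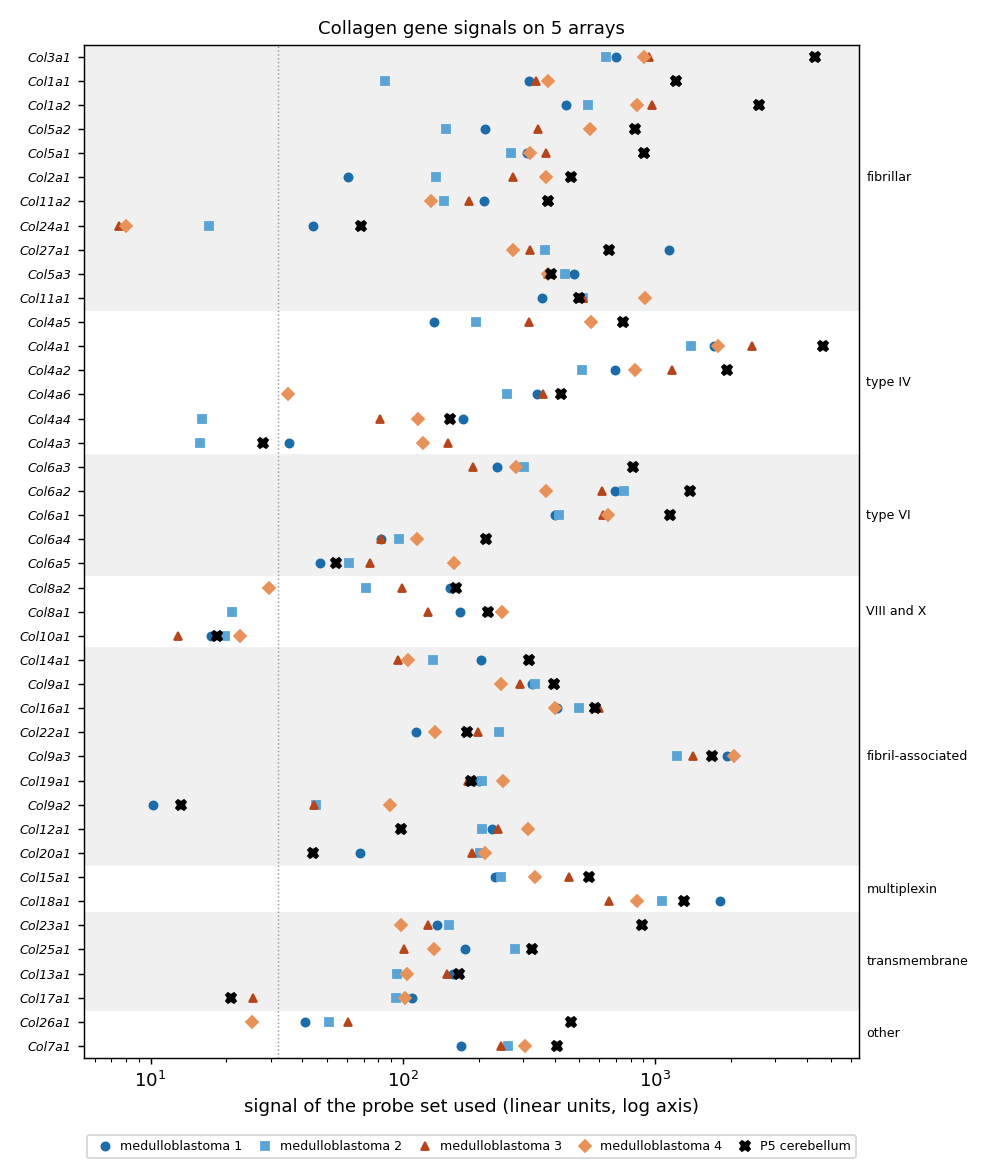
Signal of the probe set used for each of 42 collagen genes (log axis), with 1 marker per tumour and a cross for the P5 cerebellum, grouped by chain class. The dotted line marks 32, the constant added before taking logs. For 25 genes all 4 tumours lie left of the cross.

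The fibrillar chains were the class with the most genes at least 2-fold lower in each tumour, 4 of 11, but they are also the largest class. The rule was also met by 1 of 5 type VI chains, 1 of 4 transmembrane chains and 1 of 2 other chains, and by 3.07% of all named genes. Col3a1, the single chain of type III collagen in vessel walls and meninges, read 699, 640.0, 947 and 909 in medulloblastomas 1 to 4, against 4303 in P5 cerebellum. It fell by 2.40 ± 0.30 on the log2 scale (SE; limma, adjusted p = 0.0254), and the highest tumour was still far below the cerebellum. A second, dimmer probe set of Col3a1 read 54.2, 141, 151 and 199 in the tumours and 381 in P5 cerebellum, a log2 difference of -1.38. With both probe sets averaged the Col3a1 difference was -1.89 and not called (limma, adjusted p = 0.102). Without medulloblastoma 2, 3 or 4 it was -2.31, -2.49 and -2.47, also not called, with adjusted p between 0.0529 and 0.108 in limma, and fitted without a variance trend over signal it had an adjusted p of 0.103.

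Type I collagen, the main fibre of skin, bone and dura, is built from Col1a1 and Col1a2. Col1a1 read 317, 85.3, 339 and 377 in medulloblastomas 1 to 4, against 1210.4 in P5 cerebellum. Medulloblastoma 2 stood well below the other 3 tumours, and the difference was -2.15 ± 0.66 (SE; limma, adjusted p = 0.212). The other Col1a1 probe set gave the same picture, at 318, 123, 275 and 286 in the tumours and 869 in P5 cerebellum. Col1a2 read 442, 545, 975 and 848 in the tumours, against 2588 in P5 cerebellum, a difference of -1.90 ± 0.43. Here medulloblastoma 2 was not apart on the probe set used, but it was the lowest on the second one, at 345, 145, 231 and 296 in medulloblastomas 1 to 4 against 1366. The remaining Col1a2 probe set was dim on all arrays and had the opposite sign (0.44). The difference of Col1a2 was not called over all arrays (limma, adjusted p = 0.1145).

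Type V collagen, which sets the width of type I fibres, is mostly built from Col5a1 and Col5a2. Col5a1 was among the members that varied least between tumours: it read 312, 269, 369.6 and 319, against 904 in P5 cerebellum, a difference of -1.43 ± 0.32 (SE; limma, adjusted p = 0.1145). Its 2 other probe sets differed by -1.60 and -1.04. Col5a2 was spread more widely, at 212, 148, 343 and 551 in medulloblastomas 1 to 4 against 833, a difference of -1.47 ± 0.59. All 4 tumours lay below the cerebellum, but medulloblastoma 4 was within 2-fold of it. Its second probe set read 20.4, 45.6, 14.5 and 154 in the tumours and 346 in P5 cerebellum (-2.30). Col5a3, a further type V chain, read 478, 441, 375 and 377 in the tumours and 388 in P5 cerebellum, so the groups overlapped (0.09 ± 0.31).

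The cartilage-type fibrillar chains were less uniform. Col2a1, the chain of type II collagen, read 60.4, 135, 274 and 369 in medulloblastomas 1 to 4, against 464 in P5 cerebellum (-1.25 ± 0.75). Both ken tumours were below both hmk tumours, and the hmk pair was within 2-fold of the cerebellum. Col11a2, a type XI chain, read 209.9, 146, 183 and 129 against 377 (-1.06 ± 0.44). Col11a1, its partner chain, read 357, 519, 519 and 913 in the tumours and 499.8 in P5 cerebellum, lowest in medulloblastoma 1 and highest in medulloblastoma 4 (0.12 ± 0.45). Col27a1, a later-found fibrillar chain of cartilage, read 1134 in medulloblastoma 1 and 365, 320.4 and 273 in medulloblastomas 2 to 4, against 655 in P5 cerebellum (-0.54 ± 0.67). Medulloblastoma 1 was therefore above the cerebellum and the other 3 tumours below it, and the second Col27a1 probe set had the same order of medulloblastoma 1 against the rest (508 against 230.4 to 289, with 457 in the cerebellum).

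**Figure D2:**
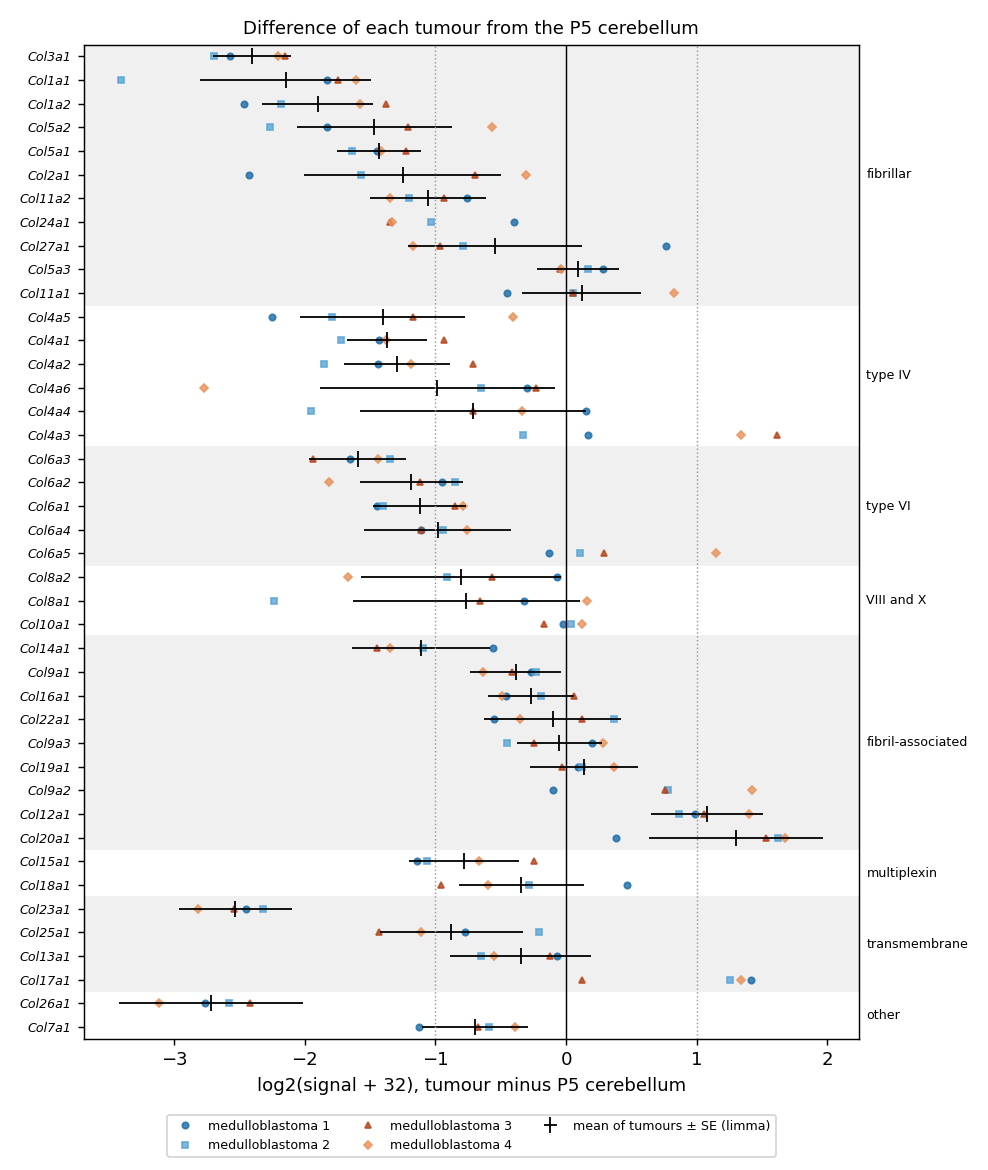
Difference of each tumour from the P5 cerebellum in log2(signal + 32) for 42 collagen genes, by chain class; black bars are the mean of the 4 tumours ± SE in limma for the 36 genes tested. Dotted lines mark 2-fold; Col3a1, Col1a1, Col1a2, Col5a1, Col6a3, Col23a1 and Col26a1 have all 4 tumours left of the lower one.

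Type IV chains, the sheet-forming collagens of basement membranes, were below the cerebellum in each tumour for 4 of 6 genes, none of them at least 2-fold lower in each. Over all named genes 31.2% lay below it in each tumour. Col4a1, the chain present in nearly all basement membranes, read 1709.5, 1387, 2416 and 1775 in medulloblastomas 1 to 4, against 4655 in P5 cerebellum, a difference of -1.37 ± 0.31 (SE; limma, adjusted p = 0.1145). A second Col4a1 probe set read 1025, 865, 1125 and 654 against 2384 (-1.38). Col4a2, which joins Col4a1 in the same molecule, read 694, 514, 1171 and 835 in the tumours, against 1936 in P5 cerebellum (-1.30 ± 0.41). On the probe sets used, both genes of this pair had their highest tumour signal in medulloblastoma 3 and their lowest in medulloblastoma 2, and no tumour reached the cerebellum. On the second Col4a1 probe set the lowest tumour was medulloblastoma 4.

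The remaining type IV chains form the networks of specialised basement membranes such as those of kidney and smooth muscle. Col4a5 read 133, 194, 316 and 559 in medulloblastomas 1 to 4, against 750.0 in P5 cerebellum (-1.40 ± 0.63), and its second probe set read 261, 216, 410.2 and 342 against 578 (-0.88). Its neighbour and partner Col4a6 read 341, 259.7, 359 and 35.2 in the tumours and 425 in P5 cerebellum (-0.98 ± 0.90). On the probe sets used, medulloblastoma 4 thus had the highest Col4a5 signal of the tumours and the lowest Col4a6 signal. This rests on those probe sets, since medulloblastoma 3 was the highest on the second Col4a5 probe set. A second, dimmer Col4a6 probe set read 23.4, 28.3, 92.0 and 94.0 against 170.1, the tumours in the same order as on the Col4a5 probe set used. Col4a4 was dim, at 174, 16.0, 81.2 and 115 in the tumours and 153 in P5 cerebellum (-0.71 ± 0.86). Col4a3, below the signal filter, read 35.5, 15.7, 152 and 119.8 against 28.0, whereas its other probe set read 18.1, 26.1, 17.2 and 78.1 against 132, so no direction can be read for it.

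Type VI collagen is built from Col6a1, Col6a2 and Col6a3 in equal parts, and each of them lay below the cerebellum in all 4 tumours. Col6a3 read 237.5, 302, 189.6 and 282 in medulloblastomas 1 to 4, against 817 in P5 cerebellum, a difference of -1.59 ± 0.37 (SE; limma, adjusted p = 0.121). Col6a1 read 403, 417, 625 and 653 in the tumours, against 1150.5 in P5 cerebellum (-1.12 ± 0.36). Col6a2 read 697, 751, 616 and 368, against 1376 (-1.18 ± 0.39), and its second probe set gave -1.29. The order of the tumours was not the same for the 3 chains: medulloblastoma 4 was the highest for Col6a1 and the lowest for Col6a2, on both Col6a2 probe sets. Col6a4, a chain that can take the place of Col6a3, read 82.1, 96.4, 82.0 and 113.5 against 214 (-0.98 ± 0.56). Col6a5, below the filter, read 47.2, 61.4, 73.8 and 159.7 in the tumours and 54.5 in P5 cerebellum.

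Among the fibril-associated chains the picture was mixed, with 2 of 9 below and 2 above the cerebellum in each tumour and a median difference of -0.05. Over all named genes these shares were 31.2% and 21.8%, so the counts are not read as a result. Both genes above it, Col12a1 and Col20a1, passed the signal filter through the tumours alone. Col12a1, which lies along type I fibres, read 227, 206, 239 and 313 in medulloblastomas 1 to 4, against 98.3 in P5 cerebellum, a difference of 1.08 ± 0.43 (SE; limma, adjusted p = 0.296). All 4 tumours were above the cerebellum on this probe set, but its 3 dimmer probe sets differed by 0.13, -0.48 and 0.14. Col20a1 read 67.5, 202, 188 and 212 against 44.1 (1.30 ± 0.67), with medulloblastoma 1 well below the other tumours. Of its other probe sets, 2 were also higher (0.92 and 0.73) and the dimmest was lower (-0.34). Col14a1 was on the other side, at 205, 132, 96.0 and 105 in the tumours and 317 in P5 cerebellum (-1.11 ± 0.53).

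Type IX collagen coats type II fibres and is built from Col9a1, Col9a2 and Col9a3. Col9a3 read 1938, 1224, 1412 and 2057 in medulloblastomas 1 to 4 and 1681 in P5 cerebellum, with tumours on both sides (-0.05 ± 0.33). Col9a1 read 326, 334, 291 and 245 against 397.5 (-0.39 ± 0.35), and its second probe set, at 166, 185, 193 and 264 against 434, differed by -1.01. Col9a2 was below the filter, at 10.3, 45.5, 44.5 and 89.0 against 13.2. Col16a1, Col19a1 and Col22a1 differed by -0.27, 0.14 and -0.10, with SE between 0.33 and 0.53.

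The largest differences below the cerebellum were those of Col26a1 and the membrane-bound Col23a1. Col23a1, a transmembrane collagen, read 137, 152, 126 and 98.8 in medulloblastomas 1 to 4, against 888 in P5 cerebellum, a difference of -2.53 ± 0.43 (SE; limma, adjusted p = 0.0593). Its 2 other probe sets lay on the same side, at 295, 278, 145 and 140.2 against 422 (-0.94) and at 8.60 to 11.7 in the tumours against 323 (-3.08). The difference of Col23a1 was called with a constant 4 times as large (limma, adjusted p = 0.0368). It was also called in the hmk arrays only and without medulloblastoma 1. With a constant of 8, without a filter, and with its probe sets averaged it was not called. Nor was it called without medulloblastoma 2, 3 or 4, and over these alternatives the difference was between -2.73 and -2.19. Col26a1 read 41.0, 51.1, 60.9 and 25.3 in the tumours, against 463 in P5 cerebellum (-2.72 ± 0.70), so the tumour signals were of the order of the constant of 32. A second Col26a1 probe set, at 57.4, 10.2, 105 and 73.1 against 115, differed by -0.78.

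Col25a1, a transmembrane collagen of neurons, read 177, 278, 101 and 133 in medulloblastomas 1 to 4, against 325 in P5 cerebellum (-0.88 ± 0.55). All 4 tumours lay below the cerebellum, medulloblastoma 2 only slightly on this probe set. On the second one, at 103, 35.0, 96.2 and 87.4 against 162 (-0.84), all 4 were again below and medulloblastoma 2 was the lowest. Col13a1, found at the neuromuscular junction among other places, read 158, 94.9, 149.97 and 104 in the tumours and 167 in P5 cerebellum (-0.35 ± 0.54), with 2 tumours close to the cerebellum. Col17a1, a chain of the junction between skin and its basement membrane that was below the filter, read 109, 94.2, 25.5 and 102 in the tumours and 20.9 in P5 cerebellum. Col7a1, the anchoring fibril of skin, read 170.1, 262, 245 and 304 against 409 (-0.69 ± 0.41).

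Col15a1 and Col18a1, the multiplexins of basement membranes, differed in how the tumours lay. Col15a1 read 231, 245, 458 and 334 in medulloblastomas 1 to 4, against 548 in P5 cerebellum (-0.78 ± 0.42). Col18a1, the source of the fragment endostatin, read 1812, 1065, 658 and 852 in the tumours and 1303 in P5 cerebellum, above it in medulloblastoma 1 and below it in the others (-0.34 ± 0.48). The second Col18a1 probe set differed by 0.17, again highest in medulloblastoma 1. Col8a1 and Col8a2, which form a lattice under the corneal endothelium, read 168, 21.1, 126 and 247 against 218, and 154, 71.5, 99.2 and 29.4 against 163. Their differences were -0.76 ± 0.87 and -0.80 ± 0.76, and the lowest tumour was medulloblastoma 2 for Col8a1 and medulloblastoma 4 for Col8a2. On the second Col8a1 probe set, at 163, 71.9, 54.2 and 34.2 against 187 (-1.08), the lowest was medulloblastoma 4, and a dim further one had the opposite sign (0.63). Col10a1 and Col24a1 were below the filter, with signals of at most 22.7 and 68.5.

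The other probe sets of the same genes bear on how far single values can be trusted. For the 36 genes tested there were 39 further probe sets, and 27 of them had the same sign as the one used. Among the 22 with a mean signal of at least 100 the sign was the same for 17; the other 5 belonged to Col9a3 (2 probe sets), Col11a1, Col18a1 and Col19a1, whose differences on the probe set used were between -0.34 and 0.14. For the 7 genes at least 2-fold lower in each tumour, 8 of 9 further probe sets lay below the cerebellum in every tumour, the exception being the dim probe set of Col1a2 described above. To lie below is a weaker rule than 2-fold lower. A further probe set each of Col1a1, Col1a2, Col5a1 and Col23a1 was at least 2-fold lower in each tumour. Those of Col3a1 and Col26a1, and another each of Col5a1 and Col23a1, were not, with their nearest tumour at -0.84, -0.11, -0.57 and -0.47.

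**Figure D3:**
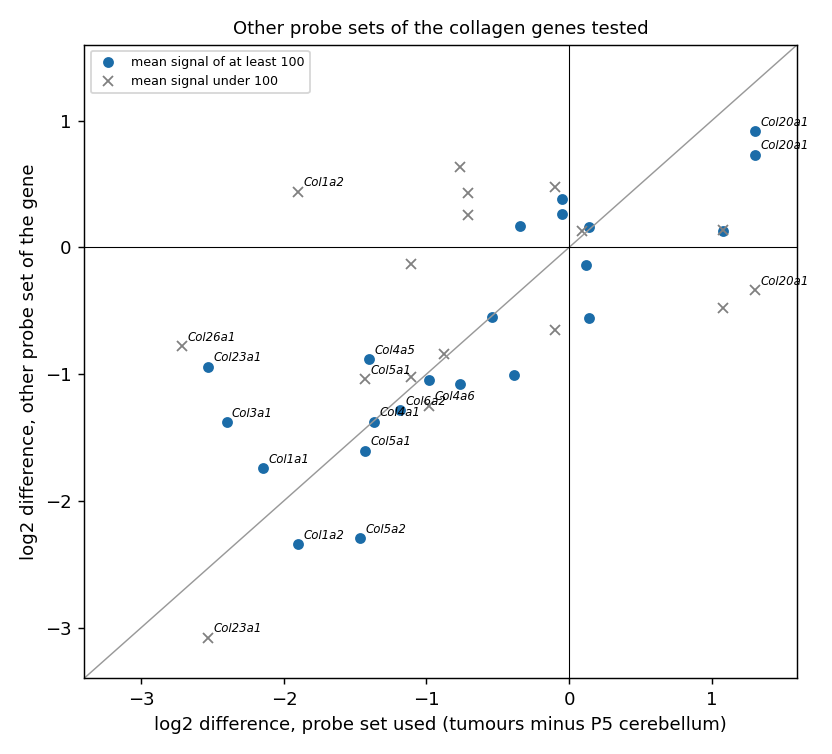
Log2 difference (tumours minus P5 cerebellum) of each gene's other probe sets (vertical) against that of the probe set used (horizontal), for 39 further probe sets of the 36 collagen genes tested. Filled points have a mean signal of at least 100, crosses less; the diagonal marks equal differences, and 27 of the 39 share the sign.

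Among the tumours, the collagen genes tested had a median SD of 0.41 on the log2 scale, against 0.31 over all genes tested. In 12 of the 36 both ken tumours were lower than both hmk tumours, and in 8 both were higher; over all genes tested these shares were 21.5% and 23.3%. The 12 were Col1a1, Col1a2, Col2a1, Col3a1, Col4a1, Col4a2, Col4a5, Col5a1, Col5a2, Col6a1, Col12a1 and Col15a1. Col2a1 had the largest gap between the pairs (-1.49, ken minus hmk), then Col4a5 (-1.23) and Col5a2 (-1.16), and Col5a1 the smallest of the 12 (-0.22). On the other side were Col5a3, Col6a2, Col9a1, Col14a1, Col18a1, Col23a1, Col25a1 and Col27a1, with gaps between 0.27 and 1.05. These gaps are descriptions with no test, and what the prefix stands for is unknown. Within the hmk arrays alone, the difference was -2.18 for Col3a1, -1.67 for Col1a1, -1.48 for Col1a2 and -1.16 for Col4a1. In the ken tumours, which have no cerebellum of their own prefix, it was -2.63, -2.62, -2.32 and -1.58.

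Genes that modify, fold and export collagen chains lay on both sides of the cerebellum. The median difference was -0.17 over 18 measured genes, and of the 16 tested none was called in either direction by limma. Serpinh1, the collagen chaperone HSP47, read 1471, 1540.5, 1535 and 1062 in medulloblastomas 1 to 4 and 1522 in P5 cerebellum (-0.13 ± 0.28). The lysyl hydroxylase genes Plod1 and Plod2 went opposite ways, at -0.76 ± 0.32 and 0.68 ± 0.25, and the prolyl hydroxylase gene P4ha1 differed by 0.65 ± 0.32. P3h3, a further hydroxylase gene, differed by -0.84 ± 1.10, with 32.3 in medulloblastoma 4 and 731 in medulloblastoma 1.

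Of the propeptide removal and cross-linking genes, 2 of 10 measured were at least 2-fold lower in each tumour, with a median of -0.71 and none of 8 tested called. The share at least 2-fold lower in each tumour was 3.07% over all named genes. Among the genes named from here on, Adamts3, Lox, Lama4, Nid2, Mfap4, Slc6a13 and Pecam1 averaged under 100 in the tumours and Fap was under 100 in the cerebellum, so they passed the signal filter through 1 side and their tests support no count of genes. Adamts3, a protease that trims procollagen, read 80.8, 117, 57.4 and 45.4 in the tumours, against 582 in P5 cerebellum (-2.56 ± 0.61; limma, adjusted p = 0.125). Pxdn, peroxidasin, which cross-links type IV collagen, read 502, 464, 495 and 621, against 1344 (-1.32 ± 0.29; limma, adjusted p = 0.109). The lysyl oxidase gene Lox read 20.0, 12.1, 95.5 and 211 in the tumours, against 195 in P5 cerebellum, with both ken tumours low and medulloblastoma 4 at the level of the cerebellum (-1.31 ± 1.03).

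Collagen receptors had a median of 0.53 over 10 measured genes, none of the 8 tested called by limma in either direction. Ddr2, a receptor kinase for fibrillar collagen, read 1640.5, 1729, 1242 and 978 in the tumours, against 556 in P5 cerebellum (1.25 ± 0.34). Itgb1, the shared beta chain of the collagen integrins, differed by 0.74 ± 0.38. Mrc2, an endocytic collagen receptor, differed by -1.04 ± 0.68. Adgrg1, the receptor for type III collagen, read 1106, 2230.3, 1268 and 1711 against 2436 (-0.67 ± 0.37), below the cerebellum in each tumour. Genes of collagen breakdown had a median of -0.23 over 10 measured genes with none of 9 tested called. Ctsk, cathepsin K, read 244, 96.2, 41.9 and 31.2 against 372 (-1.84 ± 0.85), and the protease gene Fap differed by 1.16 ± 0.52 and the inhibitor gene Timp3 by -0.96 ± 0.31.

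Partners of collagen in basement membranes and fibres lay mostly below the cerebellum. Over all named genes, 31.2% were lower in each tumour. Of all genes tested, 0.177% were called lower and 0.312% higher. In basement membranes, 10 of 14 measured genes were lower in each tumour, with a median of -0.76, and 1 of the 14 tested was called lower and 0 higher by limma. That gene, Nid1, encodes nidogen, which links the laminin and type IV collagen sheets: it read 447, 583, 825 and 809 in medulloblastomas 1 to 4, against 3397 in P5 cerebellum, and fell by 2.34 ± 0.37 (SE; limma, adjusted p = 0.0468). The Nid1 call did not hold in the fits without a variance trend, without medulloblastoma 2 or without medulloblastoma 4. Lama4, a laminin chain of vessels, differed by -2.07 ± 0.75 and Nid2 by -1.92 ± 0.68. Lama5 read 637, 907, 2196 and 1934.5 against 454, above the cerebellum in each tumour (1.41 ± 0.62), and Lama1, Lama3 and Sparc had tumours on both sides of it. Among 18 fibril partners measured, 11 were lower in each tumour, with a median of -0.87 and none of 15 tested called. Mfap4, a microfibril protein, read 74.7, 22.2, 20.4 and 163 in the tumours, against 1732 in P5 cerebellum (-4.33 ± 0.80; limma, adjusted p = 0.0736). The decorin gene Dcn, in contrast, read 912, 886, 1308 and 1718 against 1431, with medulloblastoma 4 above the cerebellum (-0.29 ± 0.38). Postn and Ogn differed by -1.59 ± 0.88 and -1.51 ± 0.49.

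**Figure D4:**
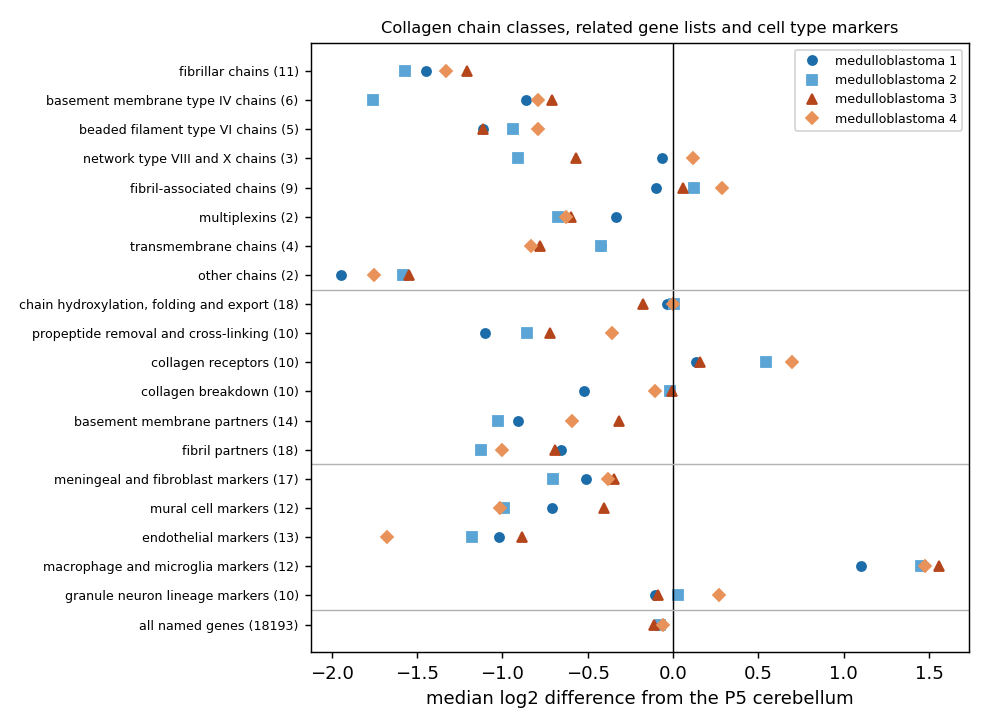
Median log2 difference from the P5 cerebellum in each of the 4 tumours for the collagen chain classes, lists of related genes and cell type markers, with the number of measured genes in brackets and all named genes at the foot. Fibrillar, type IV and type VI chains lie left of 0 in each tumour, and fibril-associated and modification genes lie near 0.

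Marker genes of cells that make collagen were read on the same arrays. Summed over 17 meningeal and fibroblast markers, the signal was 10545 to 15216 in the tumours and 15086 in P5 cerebellum, with 6 of 17 below the cerebellum in each tumour, a share near the 31.2% of all named genes. Within that list Slc6a13, a transporter of the meninges, read 85.2, 41.1, 13.7 and 39.6 in the tumours, against 699 in P5 cerebellum (-3.33 ± 0.75), and the meningeal factor gene Foxc2 read 9.19 to 26.2 against 302, below the signal filter. Lum and Foxc1 in contrast differed by -0.23 ± 0.40 and -0.57 ± 0.54. The growth factor receptor gene Pdgfra, which oligodendrocyte precursors also express, read 2357, 4112, 5106 and 4209 in medulloblastomas 1 to 4. It read 1850 in P5 cerebellum (1.03 ± 0.38) and was the only 1 of the 17 above it in each tumour. Pdgfra is a large part of the summed signal in the tumours, so the sum does not show the other markers at the level of the cerebellum. The median difference over the 17 was -0.52.

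Endothelial markers summed to 3840 to 5218 in the tumours and 9456 in P5 cerebellum, with 12 of 13 lower in each tumour, against 31.2% of all named genes. The other, Slco1a4, was above the cerebellum in each tumour (0.54 ± 0.38). Pecam1, an endothelial junction gene, read 58.0, 83.7, 100.4 and 58.4 against 447. Mural cell markers, those of pericytes and smooth muscle, summed to 4616 to 6799 against 11143, with 7 of 12 lower in each tumour, against the same 31.2%. Notch3 among them differed by -1.76 ± 0.36. Macrophage and microglia markers went the other way, at 18139 to 20190.4 against 7041, with 12 of 12 higher in each tumour, against 21.8% of all named genes. Limma called 3 of the 12 higher: Ctss, a lysosomal protease gene, by 2.38 ± 0.23 (adjusted p = 0.0197), the complement gene C1qa by 1.95 ± 0.25 (adjusted p = 0.0262) and the adaptor gene Tyrobp by 1.44 ± 0.23 (adjusted p = 0.0468). Over all genes tested 0.312% were called higher. The calls of Ctss, C1qa and Tyrobp, and that of Atoh1 below, did not hold without a variance trend or without medulloblastoma 4. No marker was listed at 0, and the part of these cell types in the collagen differences was not tested. The granule neuron lineage of the labelled tissue was present on all 5 arrays. Its 10 markers summed to 51919 to 54074 in the tumours and 52667 in P5 cerebellum, with a median difference of -0.09. Of the 10, 4 were lower and 4 higher in each tumour, against 31.2% and 21.8% of all named genes. Zic1 read 16486 to 21638 in the tumours and 24337 in P5 cerebellum (-0.40 ± 0.21), and Pax6 differed by -1.015 ± 0.34. Atoh1, a factor of granule neuron precursors, read 4178 to 9505 in the tumours and 963 in P5 cerebellum (2.81 ± 0.40; limma, adjusted p = 0.0336).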

How the data were processed

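RNA of 4 medulloblastomas and 1 P5 cerebellum had been hybridised to Affymetrix arrays. The deposited values are intensities on a linear scale, 1 per probe set and array. Per the submitters' processing notes they came from MAS5, except for medulloblastoma 3, where no tool is stated; its mean after removing 2% at each end was 500.002, like that of the other arrays. Per the labels' protocols RNA was extracted with Trizol for all but medulloblastoma 4, whose entry names only the manufacturer's standard. No depth applies to arrays; their number limits the precision. Tumours were numbered in the order of the records, and whether the arrays come from separate animals is not stated.

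Of 45101 probe sets, 34945 had 1 gene symbol in the platform annotation, 932 several (not used), 9160 none here and 64 were controls; 34741 matched a RefSeq gene of GRCm38.p6 by gene ID, with 0 symbols changed. On log2(signal + 32), the 14109 genes averaging 100 or more over the arrays were fitted by limma 3.58.1 under R 4.3.3 (variance trend, two-sided, Benjamini-Hochberg over all of them), with 3 residual and 5.02 prior degrees of freedom. The fit was tested on simulated data. The number after ± is the SE of the difference. Lists are described by counts and medians. Promoter windows came from the RefSeq table of GRCm38.p6.

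Collagen genes and lists were chosen with earlier results of these data known. Signals on all arrays are given for genes called, 2-fold or more from the cerebellum in every tumour, among the 10 brightest or the 5 most variable members, or at an end of their class, and for the related lists for called genes and up to 3 with the largest differences; Col5a2, Col5a3, Col9a1, Col11a2, Col12a1, Col25a1, the members below the filter, Serpinh1, P4ha1, Itgb1, Adgrg1, Dcn, Lama1, Lama3, Lama5, Sparc, Lum, Foxc1, Pdgfra, Zic1 and the promoter windows shown were chosen after their values were seen. Alternatives covered scaling, the added constant, a floor, the filter, the probe set, the variance trend, the title prefixes and each tumour left out.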

Additional observations from a re-analysis of the deposited data

Results flagged for a closer look

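Among the 4 tumours, 3 of the collagen genes followed had 1 array apart from the others, with a gap to the nearest tumour that took up more of the range than Dixon's limit allows. Chance alone gives such a gap in about 1 in 20 groups, a rate that does not hold for Col4a6, which was followed for its spread among the tumours. Col1a1 was low in medulloblastoma 2, at 85.3 against 317 to 377 in the other tumours, a gap of 0.873 of the range. For Col20a1 the low array was medulloblastoma 1, at 67.5 against 188 to 212 (0.884 of the range). Col4a6 was low in medulloblastoma 4, at 35.2 against 259.7 to 359 (0.833 of the range).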

How the results depend on the processing

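Over 16 alternatives, the 27 collagen genes followed gave 424 values, of which 9 changed sign, all in genes with small differences. Col9a3 was at 0.14 with equal medians, 0.0202 in the hmk arrays only, 0.20 with the mean of all probe sets, and between -0.16 and 0.0806 with 1 tumour left out. Col11a1 was at -0.20 in the ken tumours, -0.0115 with the mean of all probe sets and between -0.12 and 0.31 with 1 tumour left out, and Col18a1 was at 0.0915 in the ken tumours. The number of collagen genes called lower was 2 with a constant 4 times as large, 0 with the mean of all probe sets, 0 without a variance trend, 10 in the hmk arrays only, and 0 to 6 with 1 tumour left out (6 without medulloblastoma 1, 0 without each of the others). At an unadjusted p under 0.05 limma still gave 11 to 17 lower in each of these. Over all genes tested it gave 793 to 2087 lower in the same fits, against 1050 as reported. A fit on 1 prefix has 2 tumours for its spread, so its count does not measure strength. Col26a1, which passed the filter through the cerebellum alone, is among the 10 called in the hmk arrays only. The number at least 2-fold lower in each tumour was 14 in the ken tumours and 6 to 10 under every other alternative, with Col1a1, Col3a1, Col23a1 and Col6a3 in each. Over all genes fitted this number was 371 as reported, 622 in the ken tumours and 229 to 1069 under the other alternatives, highest in the hmk arrays only. Fewer tumours make the rule easier to meet. The number at least 2-fold higher was 1 with a constant of 8 and with a floor of 50 (Col12a1 in both), 2 in the hmk arrays only, and 0 to 1 with 1 tumour left out. Over all genes tested it was 284 as reported, 368 with a constant of 8, 340 with a floor of 50 and 761 in the hmk arrays only. The median over the collagen genes tested, -0.93, was -0.63 with that larger constant, -1.08 with one of 8, -0.79 without a filter, -0.78 after quantile normalization and -0.75 with equal medians. Equal medians move the median of all genes to 0.12 from -0.07, so the collagen median relative to it was -0.87 there and -0.86 as reported. Over all genes tested, 25 were called lower and 44 higher, against 20 lower and 78 higher with equal medians. The counts called lower over all genes moved with those of the collagen genes, at 841 in the hmk arrays only, 383 without medulloblastoma 1, and 0, 6 and 0 without medulloblastoma 2, 3 and 4. No paired analysis was possible because there is 1 cerebellum array and the labels give no pairing.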
